A study of Mus musculus with 2 samples.

Results

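The genes described here encode the protein parts of the cytosolic ribosome, in single-cell transcriptomes of murine alveolar macrophages (AMs). Members were all genes whose symbol starts with *Rpl*, *Rps* or *Rplp* followed by a digit, together with *Rpsa*. Kinases of the *Rps6k* family, pseudogenes with -ps in the symbol and genes with fewer than 10 unique molecular identifiers (UMIs) in either library were left out. This left 85 of the 32285 genes in the tables. One further candidate, the retrogene *Rpl10l*, had 1 UMI in the control library and 3 UMIs in the tumor library and was set aside. The members comprise 51 genes named for the large subunit and 34 named for the small subunit, and 83 of them reached 1000 UMIs in both libraries.

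AMs were sorted from the lungs of C57BL/6 mice at postnatal week 10 and profiled with droplet 3′ RNA-sequencing, in which each captured molecule is counted once by its UMI. The control library came from vehicle-treated mice, and the tumor library came from mice whose left lung had been implanted with Lewis lung carcinoma (LLC) cells, a syngeneic lung cancer line. No genetic change is given for either group, and no source used here states how many mice went into each library. With 1 library per condition, the condition, the mice and the library preparation cannot be told apart, so no test was made between conditions and every interval below covers counting error only.

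A ribosome needs 1 copy of nearly every one of its proteins, and the mRNAs of these proteins are among the most abundant in a growing cell. Most of these mRNAs begin with a C followed by a short run of pyrimidines at the 5′ end, the TOP motif, through which mTOR signaling and the RNA-binding protein LARP1 control their translation and stability as a group. A few members have a second copy encoded elsewhere in the genome that is used in particular tissues, such as *Rpl3l* in heart and skeletal muscle and *Rpl39l* in the male germ line.

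After barcodes with under 500 genes or over 10% mitochondrially encoded UMIs were removed, 6185 of 8485 barcodes remained in the control library and 7666 of 9175 in the tumor library, with medians of 10370 and 8264 UMIs. All 11 AM markers examined, among them *Marco*, *Siglecf*, *Pparg* and *Chil3*, were at or above 50 CPM (UMIs scaled to a total of 1000000 per library) in both libraries. Summed CPM for 10 markers of monocyte-derived or interstitial macrophages was 220.4 in control and 473.3 in tumor, for 6 neutrophil markers 70.32 and 123.3, and for 5 fibroblast markers 0.7093 and 31.73. It was lower in tumor for 8 epithelial markers (88.02 and 23.81) and 5 B or plasma cell markers (6.076 and 1.831). The higher neutrophil sum in tumor was not shared by all 6 markers. Of these, 5 had at least 10 UMIs in control and 3 in tumor, and 2 had no UMIs in tumor. Only 1 was at or above 50 CPM in tumor. Without the clusters of other cell types and of low depth, the ribosomal share described next was 13.3% in control and 10.81% in tumor. The libraries shared 25 barcode sequences, too few to bear on the sums.

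Ribosomal protein mRNA made up a smaller part of the transcriptome in the tumor library. Members held 13.17% of all UMIs in control (95% exact interval 13.16 to 13.18) and 10.86% in tumor (10.86 to 10.87), a difference of −2.305 percentage points and a fold of 0.825. Counted per barcode, the mean was 1381 member UMIs in control and 975.1 in tumor, against 9104 and 8000 UMIs of all other genes. Both kinds of UMI were thus fewer per barcode in the tumor library, and the member UMIs were lower in the larger proportion. The share of mitochondrially encoded UMIs was similar, at 2.864% and 2.657%.

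The difference lay across most of the range of barcodes. The share within a barcode had a median of 12.9% in control, with the 10th percentile at 7.72% and the 90th at 16.5%. In tumor the median was 10.5%, between 6.68% and 14.4%. Only at the low end were the libraries alike, with 5th percentiles of 4.86% and 5.09%. The distributions overlapped widely, and 79.7% of tumor barcodes lay below the control median. Barcodes with under 5% ribosomal UMIs were about as frequent in control (320 of 6185, 5.17%) as in tumor (374 of 7666, 4.88%), and most of them fell in 1 cluster of shallow barcodes led by the nuclear RNAs *Neat1* and *Lncpint*.

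**Figure D1:**
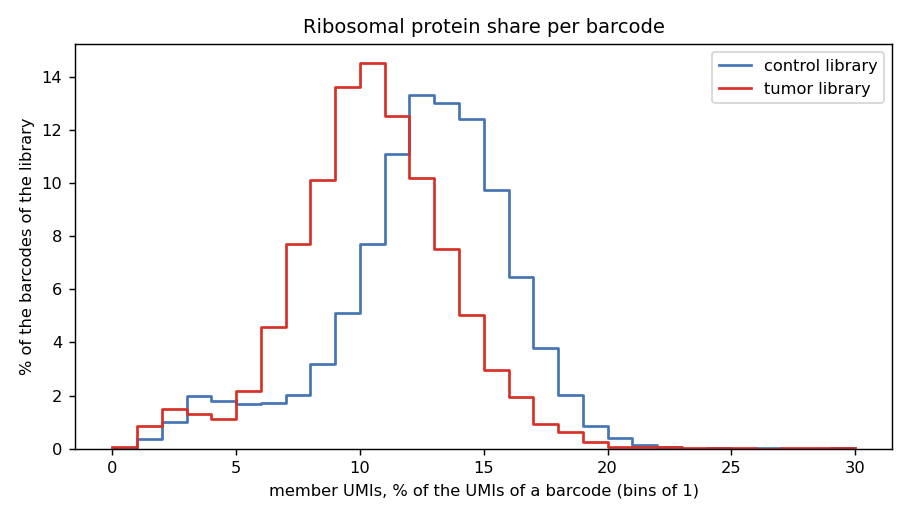
Histogram of the ribosomal protein share per barcode in bins of 1 percentage point (x axis, % of the UMIs of a barcode) against the percentage of the library's barcodes (y axis), for the control and tumor libraries. The tumor curve is shifted to the left, with a median of 10.5% against 12.9% in control, and both curves carry a small shoulder under 5%.

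The ribosomal share also varied with depth, which differed between the libraries. Across barcodes, the Pearson correlation of the share with log UMIs was 0.442 in control and 0.285 in tumor, and with the mitochondrial share it was −0.56 and −0.42. These correlations describe barcodes of 1 library each. Barcodes were therefore grouped by their number of non-member UMIs. Between 5000 and 10000 such UMIs the share was 13.28% in control and 11.15% in tumor, and between 10000 and 20000 it was 13.4% and 10.58%. At 20000 or more, with 98 and 106 barcodes, it was 13.44% and 12.45%. The tumor library was thus lower in each of these 3 depth classes, which hold most barcodes. From 2000 to 5000 UMIs the order turned, with 9.729% in control and 10.07% in tumor. Clusters of low depth supplied 41.8% of the control barcodes and 14.9% of the tumor barcodes in that class, and without them the shares were 10.72% and 10.29%. Below 2000 UMIs the shares were 8.522% and 7.015%, and 7.635% and 9.79% for the 62 and 71 barcodes outside the low-depth clusters.

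Nearly every member shared the lower level. The CPM ratio of tumor over control was below 0 on the log2 scale for 83 of 85 members, where 58.5% of the 12936 genes that passed the same minimum of 10 UMIs were below 0. The median log2 ratio was −0.30 over the members, −0.07 over all genes and −0.02 over the other genes with at least 1000 UMIs. At a limit of 0.3 on this scale, 44 members (51.8%) were lower in tumor, against 25.4% of all genes, and 0 were higher, against 15.2%. Among genes with at least 1000 UMIs the contrast was wider, with 42 of 83 members lower against 12.8% of all such genes. The limit falls at the centre of the members' own distribution, and 25 of them lay within 0.05 of it, so this count moves readily. The middle of the distribution was narrow, from −0.39 at the 25th percentile to −0.19 at the 75th.

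**Figure D2:**
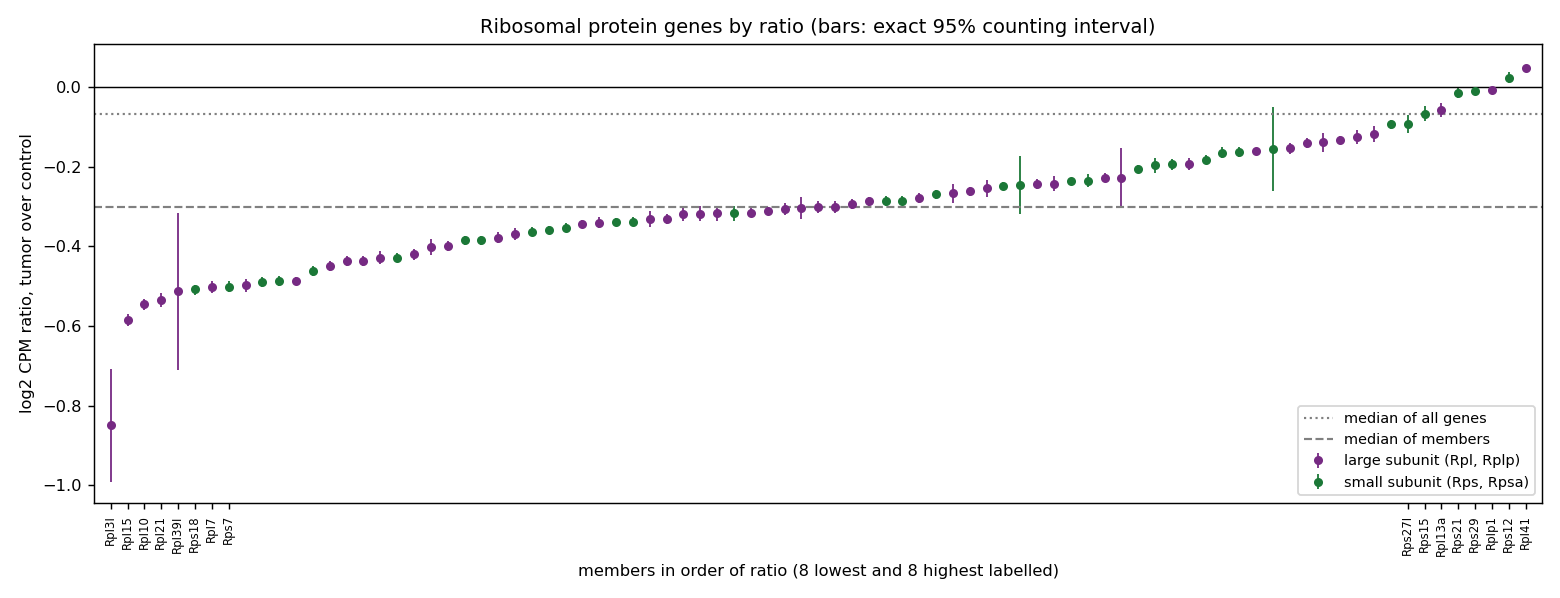
Log2 CPM ratio of tumor over control (y axis) for each of the 85 members, ordered by ratio and labelled at both ends, with exact 95% intervals that cover counting error only and lines at the members' median and the median of all genes. The members run from −0.85 (*Rpl3l*) to 0.05 (*Rpl41*), and 83 of them lie below 0.

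The most abundant members were largely the same in both libraries. Because a 3′ library counts a molecule once whatever its length, CPM values of different genes are set side by side here. Near-identical copies, described below, leave some of these counts uncertain, among them that of *Rpl41*. *Rplp1*, an acidic protein of the P stalk that recruits elongation factors, ranked first in both libraries with 3402 CPM in control and 3382 CPM in tumor. *Rpl41*, which encodes the shortest ribosomal protein, followed with 3178 and 3285 CPM. *Rpl23* had 3170 and 2556 CPM, *Rpl37a* 3134 and 2804, *Rps20* 3023 and 2622, *Rps24* 2997 and 2338, *Rpl13* 2981 and 2349, and *Rpl35a* 2839 and 2591. *Rps27a*, made as a fusion to ubiquitin, closed the 10 highest members of the control library with 2760 and 2325 CPM. Of these 10 genes, 9 were also among the 10 highest members in tumor, and Spearman's rho of member CPM between the libraries was 0.979 over 85 genes. Members took 49 of the 100 highest places among all genes in control and 41 in tumor.

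Among members with at least 1000 UMIs the highest control level exceeded the lowest, that of *Rps27rt*, by 148.6-fold. Most members lay far closer together, with 77 at or above 500 CPM in control. Apart from second copies and assembly factors, the lowest was *Rpl31* with 431.9 CPM in control and 392.4 CPM in tumor. The 5 lowest of all were second copies or relatives: *Rpl7l1* and *Rps19bp1*, which act in ribosome assembly and are not parts of the mature ribosome, had 50.42 and 49.82 CPM in control. *Rps27rt*, a retrogene of *Rps27*, had 22.9 CPM, *Rpl3l* 16.89 CPM and *Rpl39l* 7.648 CPM.

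By role, the large subunit members had a median log2 ratio of −0.31, with 30 of 51 lower by 0.3 or more, and the small subunit members −0.26, with 14 of 34. These counts stand beside 25.4% of all genes and 12.8% of those with at least 1000 UMIs. In the P stalk, the anchor protein *Rplp0* was at −0.32 (1896 CPM in control and 1523 CPM in tumor), whereas its acidic partners *Rplp2* and *Rplp1* were at −0.14 and −0.01. The members of the stalk were thus unequal. In the 5S particle, which carries the 5S rRNA and can bind MDM2 when ribosome assembly stalls, *Rpl11* was at −0.44 and *Rpl5* at −0.25. Of 8 members around the exit of the peptide tunnel, 3 (37.5%) were lower by 0.3 or more, and the 8 ran from −0.37 (*Rpl17*) to −0.12 (*Rpl23a*). Among small subunit members at the decoding site and mRNA path, *Rps3* was at −0.46 (1709 and 1241 CPM), *Rps2* at −0.29, *Rps23* at −0.18 and *Rps15* at −0.07. At the beak of the small subunit *Rps10* was at −0.39, *Rps27a* at −0.25 and *Rps12* at 0.02. The platform members *Rps26*, *Rps14* and *Rps28* were at −0.19, −0.16 and −0.09.

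The lowest ratios among abundant members belonged to *Rpl15*, *Rpl10* and *Rpl21*. *Rpl15* (ENSMUSG00000012405, chr14:18267823-18271391) had 1361 CPM in control and 907.1 CPM in tumor, a log2 ratio of −0.59 (−0.60 to −0.57). *Rpl10*, whose product joins the large subunit at a late step, had 1418 and 972 CPM, at −0.55. *Rpl21* had 920.5 and 635.8 CPM, at −0.53. At −0.51 to −0.50 followed *Rps18* (1935 and 1361 CPM), *Rpl7* (1156 and 815.9 CPM) and *Rps7* (1703 and 1203 CPM). Each of these genes was lower in tumor by far more than counting error, and their distance from the members' median of −0.30 was nevertheless under 0.3.

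Only 3 members lay 0.3 or more from the members' median, where 39.6% of all genes lay that far from their own median. Genes of few UMIs are part of that share. Among 6160 other genes with at least 1000 UMIs, whose median was −0.02, 760 were lower and 673 higher by 0.3 or more. *Rpl3l* (ENSMUSG00000002500, chr17:24727820-24736143) had 1095 UMIs and 16.89 CPM in control and 645 UMIs and 9.375 CPM in tumor. Its log2 ratio of −0.85 (−0.99 to −0.71) was below the members' median. *Rpl41* was above it at 0.05, and *Rps12* (1510 and 1535 CPM) at 0.02. *Rps29* (2631 and 2615 CPM), *Rplp1* and *Rps21* (1445 and 1431 CPM) came next at −0.01, −0.01 and −0.02. When barcodes were weighted equally, or when clusters of other cell types and of low depth were left out, 7 members were out of line, namely *Rpl15*, *Rpl3l*, *Rpl41*, *Rplp1*, *Rps12*, *Rps21* and *Rps29*. All of these except *Rpl15* and *Rpl3l* lay above the median. When clusters with under 100 control barcodes were left out, the members out of line were *Rpl21*, *Rpl39l* and *Rpl41*, so that *Rpl3l* and *Rps12* were no longer among them. *Rpl41* was above 0 in 8 of 8 alternatives (0.01 to 0.10), whereas *Rps12* was below 0 in 2 of 7. With UMIs of neither members nor mitochondrial genes as the total, the members' median was −0.34 and *Rpl41* was at 0.01.

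Promoter sequences are shown for the 3 lowest and the 3 highest ratios among members with at least 1000 UMIs and a single RefSeq entry, so that the start sites of both ends of the distribution can be compared. Each window runs from 40 bases before to 20 bases after the RefSeq transcription start on GRCm38.p6, 5′ to 3′ on the strand of the gene. Capitals mark a pyrimidine tract, defined as a C within 5 bases of the start followed by at least 5 further C or T.
Rpl15 (chr14:18270967-18271026, minus strand): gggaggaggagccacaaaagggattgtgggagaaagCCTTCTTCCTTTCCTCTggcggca
Rpl10 (chrX:74270776-74270835, plus strand): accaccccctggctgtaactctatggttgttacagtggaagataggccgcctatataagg
Rps18 (chr17:33955646-33955705, minus strand): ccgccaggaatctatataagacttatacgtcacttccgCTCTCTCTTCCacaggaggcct
Rpl41 (chr10:128549149-128549208, minus strand): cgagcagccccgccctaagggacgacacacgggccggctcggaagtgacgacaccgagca
Rps12 (chr10:23787190-23787249, minus strand): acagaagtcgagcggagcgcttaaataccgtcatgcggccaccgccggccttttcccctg
Rpl13a (chr7:45128726-45128785, minus strand): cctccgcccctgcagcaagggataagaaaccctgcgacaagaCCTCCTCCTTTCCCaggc

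The tract was present at both ends of the distribution. It ran over 17 bases in *Rpl15* and 11 in *Rps18*, which were far lower in tumor, and over 14 in *Rpl13a* (810.8 and 778.8 CPM, −0.06). No tract by this definition was found in *Rpl10*, *Rpl41* or *Rps12*, which says only that none begins within 5 bases of the annotated start. In the *Rps12* window a run of pyrimidines led by C stands farther downstream. RefSeq entries were matched for 65 of 85 members. Of these, 27 (41.5%) had the tract against 11% of 27025 genes in the table. The share was 16 of 33 for members above the members' median ratio and 11 of 32 for those at or below it. Within the full windows of 300 bases, searched on both strands, CCGGAAG, the core of sites bound by ETS family factors, was found in 26 of 65 members (40%) against 9.93% of all genes. AAGATGGC, the core of the YY1 site, was found in 6 (9.23%) against 3.19%, and TATAAA in 7 (10.8%) against 15.7%. Members without a matched entry included *Rpl3*, *Rpl7*, *Rpl8*, *Rpl17*, *Rpl21*, *Rpl23a*, *Rpl29*, *Rpl30*, *Rpl32*, *Rpl36*, *Rplp1*, *Rps14*, *Rps20*, *Rps27a* and *Rps29*.

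The ratio followed the length of the encoded protein. Over the 83 members with at least 1000 UMIs, Spearman's rho of log2 ratio and coding length was −0.55. The 21 shortest, of 25 to 119 residues, had a median ratio of −0.16, and 3 of them were lower by 0.3 or more, a share near the 12.8% of all genes at that depth. Among the 21 members of 122 to 151 residues the median was −0.29 with 10 lower, and among the 21 of 151 to 204 residues it was −0.39 with 14 lower. The 20 longest, of 208 to 419 residues, had a median of −0.34 with 15 lower. These genes share the same pair of libraries and are not independent replicates. The ratio had little relation to the level itself, with a rho of −0.05 against control CPM. Over 6101 other genes with at least 1000 UMIs the rho with coding length was 0.07. It was 0.20 over the 943 of them no longer than the longest member and at 100 CPM or more, −0.05 over 70 mitochondrial ribosomal protein genes, and −0.46 over 82 nuclear genes of the respiratory chain. A negative relation to length was therefore also measured in another group of short, abundant mRNAs, and the library and the condition cannot be told apart. Within each of 14 cell states described next, the rho over members was between −0.30 and −0.55.

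**Figure D3:**
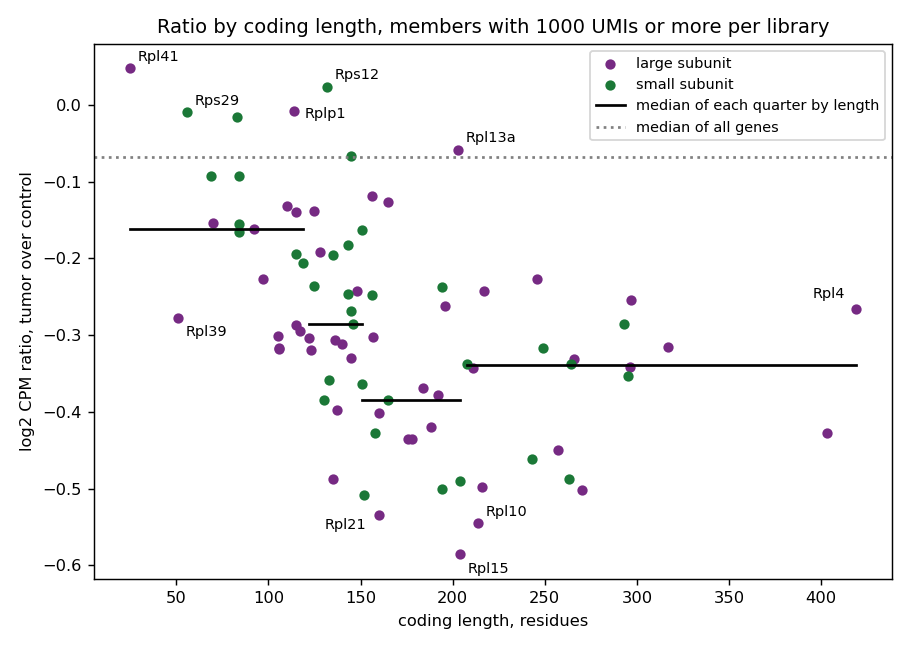
Log2 CPM ratio of tumor over control (y axis) against coding length in residues (x axis) for the 83 members that reached 1000 UMIs in both libraries, with the median of each of the 4 length classes as a solid line and that of all genes as a dotted line. Members of up to 119 residues have a median of −0.16, with *Rpl41* at the far left, and those of 208 residues or more a median of −0.34.

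Cell states were defined by clustering both libraries without ribosomal, mitochondrial or antigen receptor genes, so that the members had no part in forming them. Clusters are called here by their leading genes. Of 22 clusters, 18 held at least 100 barcodes, and 14 of these held at least 50 barcodes of each library. The member share was lower in tumor in all 14, with the difference between −1.2 and −3.84 percentage points. The smallest difference was in the *Neat1* *Lncpint* cluster (7.3% in control and 6.104% in tumor), whose barcodes were shallow (median 2816 UMIs) and high in mitochondrial UMIs (median 6.19%). The other shallow state, led by *Gm42418* and *Perp* (median 2570 UMIs), had the highest control share of all states, with 14.73% in control and 12.1% in tumor. The greatest was in the *Mmp12* *Cxcr1* cluster, with 14.06% in control and 10.22% in tumor. At the control library's mix of states, the difference between libraries was −2.43 points.

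Among states of ordinary depth the control shares lay within 1.37 points of each other. They ran from 12.69% in the *Slc40a1* *Akr1b8* cluster, led by iron and antioxidant genes, to 14.06% in the *Mmp12* *Cxcr1* cluster. Proliferating AMs lay within the range of the other states. The cluster led by the S phase genes *Uhrf1* and *Mcm5* had 12.92% in control and 11.01% in tumor, the histone and *Top2a* cluster 12.82% and 11.06%, and the *Cenpf* cluster of mitotic genes 13.69% and 11.6%. The cluster led by *Hspa1b*, *Jun* and *Egr1*, genes induced by stress and by cell handling, had 13.84% and 11.85%. The largest cluster, led by the lipid genes *Abca1* and *Acaa1b*, had 13.06% and 10.22%. A cluster led by cholesterol synthesis genes with *Car4* and *Inhba* had 13.63% and 10.01%, the lowest tumor share at ordinary depth. The cluster with the MHC class II genes and *Cxcl9* had 13.07% and 11.36%. Over the 14 states the order of shares was only partly kept between libraries, with a Spearman's rho of 0.50.

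**Figure D4:**
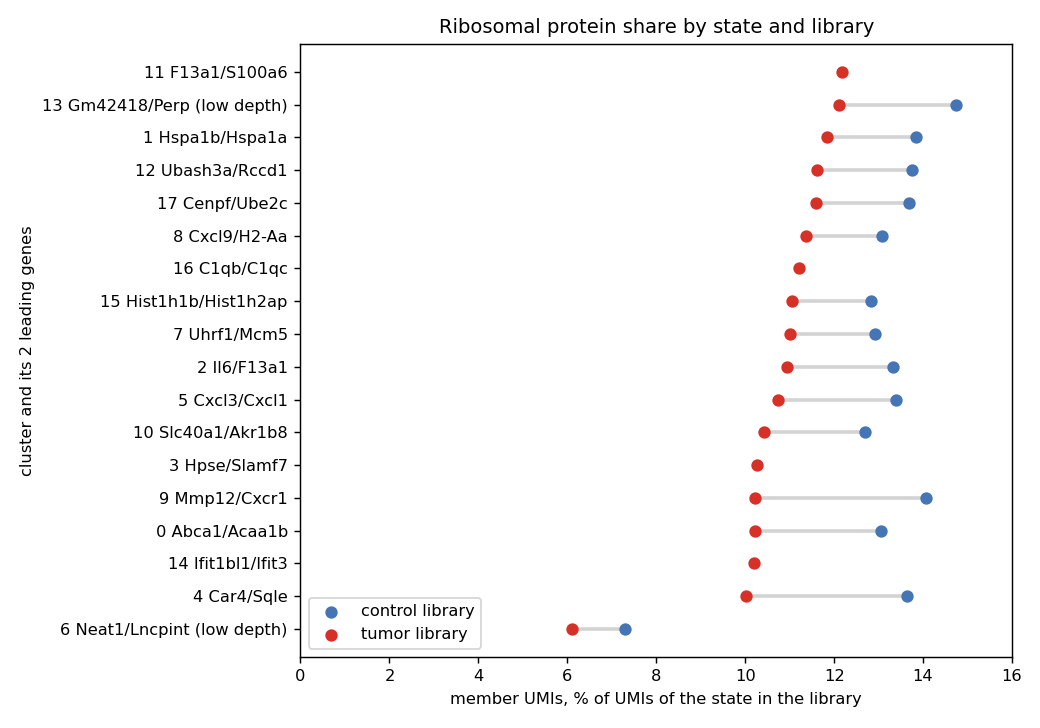
Member UMIs as a percentage of all UMIs (x axis) in each state and library (y axis, states named by leading genes), with low-depth clusters marked. In each of the 14 states with both libraries the tumor point lies to the left of the control point, with a difference between −1.2 and −3.84 points.

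Within states the members again differed together. The median log2 ratio of members within a state ran from −0.20 in the *Cxcl9* *H2-Aa* cluster to −0.47 in the *Mmp12* *Cxcr1* cluster, while the median of all genes in the same states lay between −0.08 and 0.08. *Rpl15* was lower in tumor in all 14 states (−0.36 to −0.78), and so were *Rpl10* (−0.24 to −0.74) and *Rps18* (−0.26 to −0.78). *Rpl41*, by contrast, was above 0 in 11 of 14 states and below it in 3, with −0.16 in the *Mmp12* *Cxcr1* cluster and 0.20 in the *Neat1* *Lncpint* cluster at the ends.

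Of the 18 states, 5 were found almost only in the tumor library, with fewer than 100 control barcodes each, and 1 of them is also among the 14 states above (55 control barcodes). They were led by *Il6* and *F13a1*, by *Hpse* and *Slamf7*, by *F13a1* and *S100a6*, by interferon-induced *Ifit* genes, and by the complement genes *C1qb* and *C1qc*. The *C1qb* *C1qc* cluster had markers of monocyte-derived or interstitial macrophages among its leading genes. It was therefore among the clusters of other cell types in the setting that left these out. Together the 5 states held 3147 tumor barcodes (41.1%) and 150 control barcodes. Their ribosomal share did not set them apart from the rest of the tumor library. It was 10.73% (10.72 to 10.74) over these 5 states and 10.76% (10.75 to 10.77) over the 4379 barcodes of the other states. Single states varied, from 10.19% in the *Ifit* cluster to 12.17% in the *F13a1* *S100a6* cluster, the highest tumor share at ordinary depth among clusters of 100 or more barcodes. A smaller cluster led by *Hspa1b* and *Ckb*, with 3 control and 89 tumor barcodes, had 13.32%. Member by member the median log2 ratio of these states over the others was −0.01, with −0.10 over all 11740 genes tested. No member was higher by 0.3 or more (12.3% of all genes were), and 2 were lower (24.0% of all genes were).

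Both of these were second copies. *Rpl39l*, a copy of *Rpl39* at the wall of the peptide tunnel, had 29 UMIs and 0.9404 CPM in the 5 states and 340 UMIs and 9.245 CPM in the remaining tumor barcodes, which is −3.30 on the log2 scale (−3.90 to −2.75). In the control library it was found in 12 of 14 states. *Rpl39l* was highest in the *Slc40a1* *Akr1b8* cluster in both libraries, with 15.67 CPM (11.74 to 20.5) in control and 22.24 CPM (16.45 to 29.4) in tumor. In the *Mmp12* *Cxcr1* cluster it had 8.969 CPM in control and 15.73 CPM in tumor, and in the *Abca1* *Acaa1b* cluster 6.952 and 8.966 CPM. In the *Ubash3a* cluster it had 13.9 CPM in control and 6.538 CPM in tumor. Of the 8 states with at least 10 UMIs in both libraries, *Rpl39l* was above its control level in 6 and below it in 2. The exact interval of the log2 ratio left out 0 in 1 of them, the *Mmp12* *Cxcr1* cluster (0.81, 0.20 to 1.43), and this interval covers counting error only. The sum over the library was lower in tumor (7.648 and 5.363 CPM, −0.51). When clusters with under 100 control barcodes were left out, the library ratio of *Rpl39l* was 0.24. At the low end, 0 UMIs were found in the tumor barcodes of the *C1qb* *C1qc* cluster, which allows up to 1.162 CPM at a floor of 3 UMIs, and 7 UMIs (0.7107 CPM) among 1179 tumor barcodes of the *Il6* *F13a1* cluster. The 55 control barcodes of that cluster also had 0 UMIs, which at their depth allows up to 5.637 CPM.

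*Rpl3l*, a copy of *Rpl3* at the peptidyl transferase center, had 197 UMIs and 6.388 CPM in the 5 states against 444 UMIs and 12.07 CPM in the others, a log2 ratio of −0.92 (−1.17 to −0.67). It was also low in the histone and *Cenpf* clusters and in the shallow *Neat1* *Lncpint* cluster (5.147 CPM in control and 2.971 CPM in tumor). In the histone and *Top2a* cluster it had 15 UMIs (5.9 CPM) in control and 3 UMIs (2.432 CPM) in tumor, and in the *Cenpf* cluster 3 UMIs (2.403 CPM) and 1 UMI (1.186 CPM). The S phase cluster led by *Uhrf1* and *Mcm5*, with 18.4 and 8.832 CPM, was close to the median of the states (18.06 and 9.861 CPM). In the *Abca1* *Acaa1b* cluster the levels were 17.72 and 14.21 CPM. In the *Il6* *F13a1* cluster, 1 of the 5 states, it had 9 UMIs and 16.91 CPM (7.733 to 32.1) among 55 control barcodes and 7.716 CPM (6.08 to 9.658) in tumor. Without the clusters of under 100 control barcodes the library ratio of *Rpl3l* was −0.49, so that its lower level in tumor was also present among the states shared by both libraries.

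**Figure D5:**
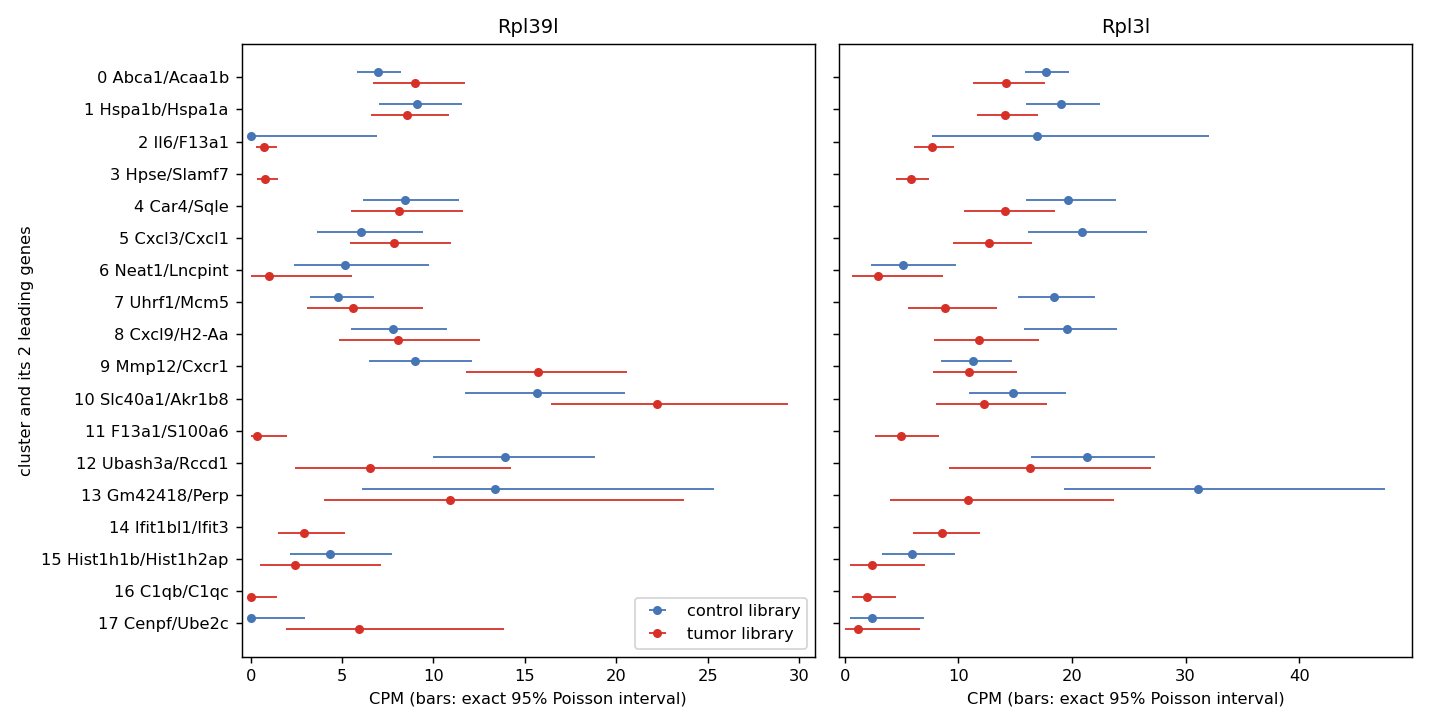
CPM of *Rpl39l* and *Rpl3l* (x axes) in each state (y axis, cluster and its leading genes) for the control and tumor libraries, with exact 95% Poisson intervals that cover counting error only. *Rpl39l* peaks in the *Slc40a1* *Akr1b8* cluster in both libraries (15.67 and 22.24 CPM) and is at or under 3 CPM in the states found mainly in tumor, while *Rpl3l* is low in the histone, *Cenpf* and *Neat1* *Lncpint* clusters.

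The make-up of the ribosomal UMIs was otherwise much alike between states. Each member's share of the ribosomal UMIs in a state was compared with that in the other barcodes of the same library, and only 3 departures reached 0.5 on the log2 scale in the same direction in both libraries with at least 10 UMIs expected. They were *Rpl3l* in the histone and *Top2a* cluster (−1.51 in control and −1.99 in tumor), *Rpl39l* in the *Slc40a1* *Akr1b8* cluster (1.18 and 2.27), and *Rpl7l1* in the *Neat1* *Lncpint* cluster (0.61 and 0.68, on 74 and 39 UMIs). Departures of at least 0.3 in both libraries were most frequent in the histone and *Top2a* cluster (7 members) and the *Cenpf* cluster (5), and none was found in the *Uhrf1* *Mcm5* cluster. Outside these clusters they included *Rps15* (0.49 and 0.40) and *Rpl5* (0.38 and 0.37) in the *Neat1* *Lncpint* cluster. In CPM, *Rpl7l1*, *Rps15* and *Rpl5* were lower in that cluster than in the other barcodes of either library. *Rpl7l1* had 42.32 CPM against 50.65 in control and 38.62 against 43.16 in tumor. *Rps15* had 517.5 against 672.5 and 472.3 against 640.6, and *Rpl5* 382.6 against 535.7 and 321.8 against 447.6. *Rpl22l1*, a copy of the RNA-binding protein gene *Rpl22*, had 507 and 438.6 CPM in the histone and *Top2a* cluster, against 379.5 and 309.1 CPM in the other barcodes. In the *Cenpf* cluster *Rpl22l1* had 555.1 and 452 CPM, against 381.1 and 309.7 CPM in the other barcodes. *Rps27l*, a copy of *Rps27* and a known p53 target, had 617.5 and 674.5 CPM in the histone and *Top2a* cluster, against 504.2 and 473.8 CPM in the other barcodes. In the same cluster *Rps20* and *Rpsa* took a greater part of the ribosomal UMIs in both libraries (0.35 and 0.40, 0.32 and 0.38), and *Rpl10* and *Rps27* a smaller one (−0.37 and −0.41, −0.30 and −0.35).

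From cell to cell within the *Abca1* *Acaa1b* cluster, most members varied little more than sampling of the ribosomal UMIs would give. The ratio of observed to sampling variance had a median of 1.25 over 80 members in control and 1.19 in tumor. At equal variation between cells this ratio grows with the level of a gene, and *Rplp1* and *Rpl41* are among the highest members. *Rplp1* had the highest ratio in both libraries (2.27 and 2.76). *Rps12* and *Rpl41* held the next places in both, with 1.97 and 1.9 in control and 1.76 and 2.2 in tumor. Close behind were *Rps25* in control (1.86) and *Rpl12* in tumor (1.73), whose library ratios were −0.24 and −0.13. *Rps29* and *Rps21* had library ratios near 0, as had *Rplp1*, *Rps12* and *Rpl41*. Their variance ratios were 1.44 and 1.32 in control and 1.32 and 1.23 in tumor, closer to the median member.

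The second copies were set beside the genes they resemble. *Rpl36al* supplied 49.3% of the UMIs of itself and *Rpl36a* in both libraries. *Rps27l* supplied 27.9% of the pair with *Rps27* in control and 28.9% in tumor, and *Rpl22l1* 24.9% and 23.5% of the pair with *Rpl22*. *Rpl3l* supplied 1.57% (1.48 to 1.67) and 1.18% (1.09 to 1.27) of the pair with *Rpl3*, and *Rpl39l* 0.406% and 0.346% of the pair with *Rpl39*. The assembly factor *Rpl7l1* stood at 4.18% and 5.02% beside *Rpl7*. *Rps27rt* stood at 1.71% and 1.72% beside *Rps27*, and since their transcripts are identical over 341 bases its count is uncertain.

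Copies outside the member list were small in sum. By sequence, 12 other genes matched 11 members with at least 95% identity over at least 150 bases, and they held 0.08989% of control UMIs and 0.09351% of tumor UMIs. The main one was *Gm10076*, 99.48% identical to *Rpl41* over 383 bases, with 418.9 CPM in control and 471.6 CPM in tumor (0.17). Molecules of *Rpl41* and *Gm10076* may have been divided between them in counting, and with both summed the ratio of *Rpl41* was 0.06. *BC005537*, 96.13% identical to *Rpl7l1* over 155 bases, had 343.8 and 336.8 CPM (−0.03) and held 87.2% of the control UMIs of the pair, so that the count of *Rpl7l1* is uncertain. *BC004004*, a copy of *Rpl21*, had 43.87 and 54.21 CPM (0.31), whereas *Rpl21* itself was at −0.53.

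Ribosome parts under other names had the same direction. *Fau*, which encodes a small subunit protein fused to a ubiquitin-like domain, had 3721 CPM in control and 2964 CPM in tumor (−0.33), above every member in control. *Rack1*, a scaffold protein on the small subunit, had 1025 and 866 CPM (−0.24).

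Other genes of translation and ribosome assembly were examined by list. Their counts stand beside the 25.4% of all genes that were lower by 0.3 or more and the 15.2% that were higher. A list of 16 genes held translation factors and others, such as *Npm1* and *Hnrnpa1*. Their mRNAs belong to the TOP class or are regulated with it. Of the 16, 9 (56.2%) were lower by 0.3 or more and 0 were higher, with a median of −0.34. All 16 had at least 1000 UMIs, a depth at which 12.8% of all genes were lower. *Eef1a1*, which carries aminoacyl-tRNA to the ribosome, had 2936 and 2501 CPM (−0.23), *Eef1d* was at −0.63, and *Tpt1* and *Pabpc1* were at −0.07 and 0.03. Of 26 ribosome biogenesis genes, 16 (61.5%) were lower and 0 higher, with a median of −0.33. Among the 20 of them with at least 1000 UMIs, 12 (60%) were lower, against 12.8% of all genes at that depth. *Nop2*, an rRNA methyltransferase, was at −0.85 (23.55 and 13.1 CPM) and nucleolin (*Ncl*) at −0.33, whereas *Ubtf*, a factor of RNA polymerase I, was at 0.01. Among 78 mitochondrial ribosomal protein genes 20 (25.6%) were lower and 1 was higher, with a median of −0.20, and among the 70 of them with at least 1000 UMIs 18 (25.7%) were lower, against 12.8% of all genes at that depth. The list of mTOR and stress regulators of translation was close to 0, with a median of 0.00 over 17 genes, none lower by 0.3 and 1 higher. That gene was *Ddit4*, an inhibitor of mTOR signaling, which had only 12 UMIs in control and 34 in tumor. *Larp1* had 99.98 and 100.2 CPM, *Rheb* 135.6 and 135.8 CPM, and *Atf4* 201.5 and 167.3 CPM (−0.27). Over 6 hosts of small nucleolar RNAs, which are themselves TOP transcripts, the median was 0.08, with 1 lower and 1 higher, and over 6 measured p53 target genes it was −0.07, with 1 lower. The control genes *Actb*, *Gapdh*, *Ptprc* and *Malat1* were at −0.07, −0.17, −0.12 and −0.19.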

How the data were processed

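Single-cell suspensions of sorted AMs were processed with 10x 3′ chemistry. The submitters' processing notes name bcl2fastq 2.20, Cell Ranger 4.0.0 and the mm10 genome. The deposited tables hold raw UMI counts per Ensembl gene and barcode, 1 table per library, not normalized by the authors. Symbols were matched for 32158 of 32285 identifiers. Barcodes with at least 500 genes and at most 10% mitochondrial UMIs were kept. UMIs were summed per library or cluster and scaled to 1000000 (CPM). Ratios carry exact conditional binomial 95% intervals, shares exact binomial ones and CPM exact Poisson ones, all covering counting error only. Since each condition has 1 library, no p-value was computed. Clusters were made with Python 3.11.15 and leidenalg 0.10.2 from 2000 variable genes without ribosomal, mitochondrial and antigen receptor genes, 50 components, mutual nearest neighbour correction and resolution 1. No doublets were removed. An alternative left out barcodes with the highest doublet scores, with the limit set at 6%. It removed 253 control and 450 tumor barcodes, which is less than 6% of the kept barcodes of either library. The scripts were tested on simulated data. Members and lists were chosen with earlier results of these data known. Named members were the 10 highest and 5 lowest in control, those 0.3 log2 or more from the members' median, those departing by 0.5 log2 in a state in both libraries, and second copies. Other members were named by role after their values were seen. Some members are not reported here by name.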

Additional observations from a re-analysis of the deposited data

How the results depend on the processing

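The ribosomal share was lower in tumor under every setting tried. The difference was −2.433 points at no more than 5% mitochondrial UMIs, −2.042 with barcodes weighted equally, −2.487 without other cell types and low-depth clusters, −2.383 with ribosomal genes under other names and pseudogenes added, −2.43 at the control mix of states, and −2.392 without clusters of under 100 control barcodes, an alternative chosen after seeing the data. The members' median log2 ratio of −0.302 was −0.287 with barcodes weighted equally, −0.326 without other cell types and low-depth clusters, and −0.344 with UMIs of neither members nor mitochondrial genes as the total. Between 36 and 52 members were lower by 0.3 or more, against 44. With no minimum count 1 member was higher by 0.3 or more, *Rpl10l* on 4 UMIs. The members out of line numbered 7 with equal weights and 7 without other types and low-depth clusters. They were *Rpl41* and *Rps12* alone at a minimum of 1000 UMIs, which *Rpl3l* does not reach in tumor, and *Rpl21*, *Rpl39l* and *Rpl41* without clusters of under 100 control barcodes, where *Rpl3l* was at −0.488 and *Rps12* at −0.029. *Rpl39l* turned to 0.240 without clusters of under 100 control barcodes, in which its tumor UMIs were few.

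The range of shares over states was set mainly by the low-depth clusters, of which 1 had the lowest share in both libraries and the other the highest in control. For control it was 7.43 points, and 7.95 at resolution 0.5, 7.29 at resolution 1.5, 4.89 without correction between libraries, 7.47 without doublets and 7.31 with another seed. For tumor it was 6.07, and then 7.35, 6.44, 7.05, 7.9 and 7.71. Without low-depth states, a choice made after seeing the data, it was 1.37 and 2.16. No paired analysis was possible because each condition has 1 library, and for the same reason no library could be left out. Depth limits *Rpl39l* and *Rpl3l*, which rest on few UMIs per state.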
